A study of Homo sapiens with 9 samples.

Results

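The 10 genes described here carry arachidonic acid to prostaglandin E2 and on to its receptors. They are PLA2G4A, PTGS1, PTGS2, PTGES, PTGES2, PTGES3, SLCO2A1, HPGD, PTGER2 and PTGER4, 10 of the 60649 gene identifiers in the count table, and were found by matching their Ensembl identifiers to GENCODE. PTGS2 was picked because it was lower in both groups labelled as knockdown than in the libraries labelled as control, so those differences are described without a test. All 10 passed the filter on low counts and were among the 19674 genes tested.

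Cytosolic phospholipase A2 frees arachidonic acid from membrane lipids, and the cyclooxygenases PTGS1 and PTGS2 (COX-1 and COX-2) turn it into prostaglandin H2. Prostaglandin E synthases convert this to prostaglandin E2, which leaves the cell, acts through receptors such as EP2 and EP4 that raise cyclic AMP, and is cleared by uptake and oxidation. PTGS1 is usually expressed at a steady level, whereas PTGS2 is induced by growth factors and cytokines and is frequently elevated in epithelial cancers.

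Messenger RNA was measured by RNA sequencing in OVCAR5, an established human epithelial ovarian cancer cell line, in 9 libraries of 3 each labelled NC, SM2 and SM4. All cells came from stable lines made by lentiviral transduction and puromycin selection. NC is labelled as the control, given as parental cells in the labels and as a control hairpin in the methods of the study, and SM2 and SM4 are labelled as METTL3 knockdown, with no statement of which short hairpin RNA each carries. The source field of the SM4 libraries names other OVCAR lines, although OVCAR5 is the cell line entered for each of the 9. METTL3 encodes the methyltransferase that writes N6-methyladenosine (m6A) on RNA. Nothing states that the 3 libraries of a group came from separate cultures, so the p-values measure the spread between libraries, which may be technical.

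METTL3 itself went against the labels. It stood at 36.3, 34.4 and 36.6 CPM (counts scaled to the library total with TMM factors) in the libraries labelled NC, at 37.1, 39.8 and 40.01 in those labelled SM2 and at 60.6, 57.5 and 62.4 in those labelled SM4. It was 1.68-fold higher in SM4 than in NC (edgeR adjusted p = 2.21e-09), and its SM2 values lay above all NC values without passing the test (log2 fold change 0.12, adjusted p = 0.12). The order is the reverse of that of a control and its knockdowns. The labels NC and SM4 may therefore be exchanged, which the counts alone cannot settle. The study's supplementary list reports METTL3 lower, and JUN, ABCC4 and CEACAM5 higher, with both hairpins than with the control hairpin. Here METTL3 was higher in SM4 than in NC or SM2 (log2 fold changes 0.75 and 0.63). JUN was lower (-0.85 and -0.59), as were ABCC4 and CEACAM5. For these genes the sizes were close to those listed with each sign turned, the pattern of SM4 as the control. If NC and SM4 were exchanged, the sign of every SM4 against NC value would turn. SM2 against its control would then be SM4 against SM2 with the sign turned, and SM2 against NC would compare the knockdowns with each other. PLA2G4A, PTGS2 and PTGES3 below had no called difference between SM4 and SM2. For them the larger difference from the control would then be that of the libraries labelled NC, with its sign turned. Every direction below therefore refers to libraries as labelled and not to a measured loss of METTL3. The comparisons of SM2 and of SM4 with NC share the 3 NC libraries, so their values are given side by side and are not independent of each other.

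Library totals ran from 44103272 to 63693728 counts, and 1 CPM corresponded to 44.1 to 63.7 counts. All 7 epithelial markers were above 1 CPM, with summed levels of 11244 to 13134 CPM. Of the 6 fibroblast markers only COL1A1 passed 1 CPM, at 20.98 to 25.8. Of the 7 immune markers only LYZ and CD14 did, with PTPRC, the pan-leukocyte marker, at no more than 0.0755 CPM. Of the 5 endothelial markers PECAM1 and, in some libraries, CLDN5 exceeded 1 CPM, and KDR was at 0 throughout. In bulk RNA, fewer cells that express a gene and less RNA per cell cannot be told apart.

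**Figure D1:**
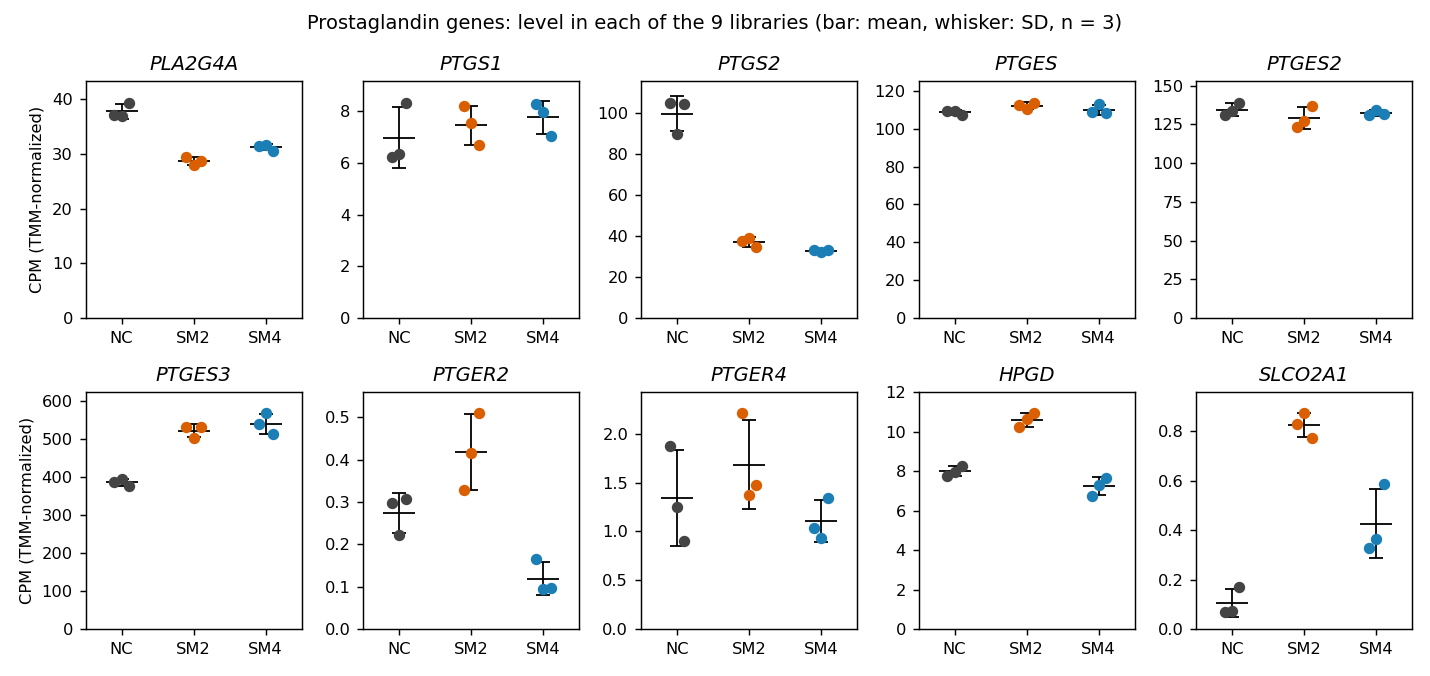
Level of each of the 10 genes in TMM-normalized CPM (y axis, linear from 0) in the 9 libraries by label (x axis). Points are libraries, horizontal bars means and whiskers SD (n = 3). PTGS2 sits near 100 CPM in NC and below 40 in SM2 and SM4, PTGES3 is higher in SM2 and SM4 than in NC, and PTGER2 and SLCO2A1 lie below 1 CPM in every library.

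PLA2G4A, which encodes the cytosolic phospholipase A2 that releases arachidonic acid, was lower in both groups labelled as knockdown. It measured 37.1, 36.8 and 39.3 CPM in the libraries labelled NC, 29.4, 27.9 and 28.6 in SM2 and 31.5, 31.5 and 30.5 in SM4. The 3 groups did not overlap, with NC highest and SM2 lowest. In SM2 against NC it fell by 0.40 on the log2 scale (SE 0.0551, edgeR adjusted p = 1.87e-05) and by 0.28 in SM4 against NC (SE 0.0544, adjusted p = 0.000799). The difference between SM4 and SM2 was 0.12 and did not pass the test (95% interval 0.0068 to 0.24, adjusted p = 0.169).

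PTGS2, the inducible cyclooxygenase, showed the largest difference among the abundant members. Its level was 105, 89.8 and 105 CPM in the libraries labelled NC, 37.7, 39.4 and 34.7 in SM2 and 33.4, 32.5 and 33.1 in SM4. No SM2 or SM4 library came near the lowest NC value, and the lowest SM2 value still lay above the highest SM4 value. The mean of 99.9 ± 8.72 CPM in NC (SD, n = 3) compares with 37.2 ± 2.38 in SM2 and 33.0 ± 0.448 in SM4. This amounts to a log2 fold change of -1.42 in SM2 (95% interval -1.56 to -1.29) and of -1.60 in SM4 (-1.73 to -1.47), that is 0.373 and 0.330 times the NC level. Among the 14412 genes with a mean of at least 1 CPM, 2 had a lower log2 fold change than PTGS2 in SM2 and 4 in SM4. The gene was picked for this fall, so its rank and intervals against NC are a description. SM4 against SM2, a contrast that was not used in choosing the gene although its libraries were, gave -0.17 and missed the threshold (SE 0.0638, edgeR adjusted p = 0.0844). Without SM2 replicate 3 that difference was -0.22 and passed (adjusted p = 0.0111).

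PTGS1, the constitutive cyclooxygenase, was far less abundant and showed no detectable difference. Its values were 6.25, 6.36 and 8.34 CPM in the libraries labelled NC, 8.19, 7.53 and 6.68 in SM2 and 8.27, 7.97 and 7.06 in SM4. All 3 groups overlapped. The log2 fold change was 0.09 in SM2 against NC (95% interval -0.16 to 0.34, edgeR adjusted p = 0.666) and 0.15 in SM4 against NC (-0.09 to 0.40, adjusted p = 0.427). SM4 against SM2 gave 0.06 (-0.18 to 0.31, adjusted p = 0.805). These intervals leave room for changes of either sign, but both against NC lie above the PTGS2 values.

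Per transcript length, the balance between the cyclooxygenase mRNAs moved with PTGS2. Length-scaled transcript levels (TPM) were computed from the counts and the merged exon length of each gene. The ratio of PTGS2 to PTGS1 TPM was 17.8, 14.9 and 13.2 in the libraries labelled NC, 4.85, 5.51 and 5.47 in SM2 and 4.26, 4.30 and 4.94 in SM4. NC did not overlap the other groups, and PTGS2 remained the more abundant of the pair in every library, at 81.0 to 94.7% of their summed TPM. The ratio of PLA2G4A to PTGS2 TPM was 0.672 to 0.780 in NC, 1.35 to 1.57 in SM2 and 1.76 to 1.85 in SM4, so the phospholipase mRNA was the less abundant of the pair in NC and the more abundant in SM2 and SM4. As PTGS2 was chosen for its difference, these ratios are given without a test.

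The sequences just upstream of the start sites of PTGS2, PLA2G4A and PTGS1 are shown because the first 2 genes lie on the same stretch of chromosome 1 and were both lower in SM2 and SM4, while PTGS1 was not. Each run holds the 150 bases before the RefSeq transcription start (GRCh38.p14), 5′ to 3′ on the strand of the gene, with motif matches in capitals. They cover chr1:186680424-186680573 on the minus strand, chr1:186828799-186828948 on the plus strand and chr9:122370383-122370532 on the plus strand.
PTGS2: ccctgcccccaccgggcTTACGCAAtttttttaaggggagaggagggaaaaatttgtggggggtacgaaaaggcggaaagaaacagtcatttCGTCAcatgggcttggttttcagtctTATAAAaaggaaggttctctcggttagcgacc
PLA2G4A: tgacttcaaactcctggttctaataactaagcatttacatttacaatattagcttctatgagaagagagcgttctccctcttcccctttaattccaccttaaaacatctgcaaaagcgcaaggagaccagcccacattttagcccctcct
PTGS1: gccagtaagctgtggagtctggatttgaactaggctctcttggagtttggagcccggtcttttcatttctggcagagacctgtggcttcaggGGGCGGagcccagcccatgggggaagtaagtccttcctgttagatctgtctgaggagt

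Both strands of each window were searched for the TATA box TATAAA, the AP-1 site TGANTCA, the cyclic AMP response element core TGACG, the E-box CACGTG, the GC box GGGCGG, the C/EBP site TTGCNNAA and the NF-kB consensus. The PTGS2 run holds 3 matches that do not overlap. They are a TATA box at -32 to -27, a cyclic AMP response element core on the opposite strand at -58 to -54 and a C/EBP site on the opposite strand at -133 to -126. Over the 35116 RefSeq promoter windows searched, which run from 250 bases before to 50 after the start, 11.5% held a TATA box, 24.6% the cyclic AMP response element core and 10.5% the C/EBP site. The PTGS1 run holds a GC box at -58 to -53, a motif found in 45.0% of windows, and its last bases overlap an annotated PTGS1 exon. The shares refer to windows that are longer than the printed runs. Outside its run, the PTGS2 window holds another cyclic AMP response element core on the opposite strand, 25 to 29 after the start. The PTGS1 window holds a TATA box match on the opposite strand at -208 to -203. None of the motifs was found in the PLA2G4A window. A match describes letters in a window and is not evidence of binding. Of the 10 genes, 9 had a RefSeq window, all but SLCO2A1.

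In GENCODE, PTGS2 spans chr1:186671791-186680922 on the minus strand and PLA2G4A chr1:186828949-186988981 on the plus strand, 148026 bases apart. The long noncoding RNA PACERR starts inside the PTGS2 gene on the other strand and shares 219 exon bases with it, 3.99% of the PTGS2 exon length. PACERR reached only 0.190 to 0.607 CPM and was not called in SM2 (-0.61) or SM4 (-0.55) against NC, with edgeR adjusted p = 0.354 and 0.415. Whether the counting used strand is not given in the sources used here, so reads in the shared bases cannot be assigned to one gene, but PACERR held a small number of counts beside PTGS2. Of the other genes within 500000 bases of PTGS2 only TPR and ODR4 were tested. TPR, a nuclear pore protein gene, was at 0.03 in SM2 against NC (adjusted p = 0.762) and rose by 0.20 in SM4 (adjusted p = 0.00867), and ODR4 was at -0.06 in both (adjusted p = 0.542 and 0.527).

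The PTGS2 transcript is rich in ATTTA, the core of AU-rich elements that shorten mRNA half-life. Its canonical GENCODE transcript of 4510 bases holds 24 copies, or 5.32 per kb, higher than in 99.4% of the 19637 transcripts compared, whose median was 0.892 per kb. PTGES3 held 4.22 per kb (percentile 98.0) and PLA2G4A 3.47 (percentile 95.3), against 0.797 in PTGS1 (percentile 47.2) and none in PTGES2. The 3 members with the densest ATTTA therefore include 1 that was higher and 1 that was lower in both groups against NC, beside PTGS2. The m6A consensus GGACT occurred 5 times in the PTGS2 transcript, 1.11 per kb, close to the median of 0.912 (percentile 60.5), and methylation itself was not measured in these libraries.

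The 3 prostaglandin E synthases differed in their behaviour. PTGES, the inducible membrane-bound synthase that is often coupled to PTGS2, measured 109, 109 and 107 CPM in the libraries labelled NC, 113, 110.2 and 114 in SM2 and 109, 113 and 108 in SM4. The SM2 values all lay just above the NC values, by 0.05 on the log2 scale (95% interval -0.04 to 0.14, edgeR adjusted p = 0.482). SM4 overlapped both groups, at 0.02 against NC (-0.07 to 0.11, adjusted p = 0.803) and -0.03 against SM2 (-0.12 to 0.06, adjusted p = 0.747).

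PTGES2, a second membrane-associated synthase, was also without a called difference. It was at 131, 133 and 139 CPM in the libraries labelled NC, 123, 127 and 137 in SM2 and 131, 134 and 132 in SM4. All groups overlapped. The log2 fold change against NC was -0.06 in SM2 (95% interval -0.16 to 0.04, edgeR adjusted p = 0.423) and -0.02 in SM4 (-0.12 to 0.07, adjusted p = 0.781), and SM4 against SM2 gave 0.03 (-0.06 to 0.13, adjusted p = 0.706). For PTGES and PTGES2 every interval excluded a change of the size seen in PTGS2.

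PTGES3, the cytosolic synthase also known as the HSP90 co-chaperone p23, was higher in both groups labelled as knockdown. It stood at 386, 396 and 377 CPM in the libraries labelled NC, 532, 502 and 532 in SM2 and 539, 568 and 514 in SM4. Neither SM2 nor SM4 overlapped NC, while they overlapped each other. It rose by 0.43 in SM2 (SE 0.0438, edgeR adjusted p = 3.38e-07) and by 0.48 in SM4 (SE 0.0438, adjusted p = 5.63e-08), or 1.35-fold and 1.40-fold. SM4 against SM2 gave 0.05 (95% interval -0.04 to 0.14, adjusted p = 0.53). With the labels NC and SM4 exchanged, PTGES3 would be lower in NC than in the control and without a called difference in SM2.

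PTGES3 has processed pseudogenes that could share reads with it. Of the 5 annotated copies, PTGES3P1 was the most abundant at 16.3 to 25.5 CPM and was also higher in SM2 (0.44, edgeR adjusted p = 0.000142) and SM4 (0.50, adjusted p = 2.89e-05) than in NC. The copies together made up 4.53 to 5.28% of the summed CPM of PTGES3 and its copies. With the copies added, the log2 ratio of group means was 0.43 in SM2 and 0.48 in SM4 against NC.

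On the TPM scale PTGES3 accounted for 58.2 to 59.4% of the 3 synthase mRNAs in the libraries labelled NC, 65.1 to 66.3% in SM2 and 65.7 to 67.1% in SM4. The share of PTGES was correspondingly lower, at 29.4 to 29.96%, 25.1 to 25.7% and 24.003 to 24.9%. The order of the synthases was the same in all groups, with PTGES3 above PTGES and PTGES above PTGES2.

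**Figure D2:**
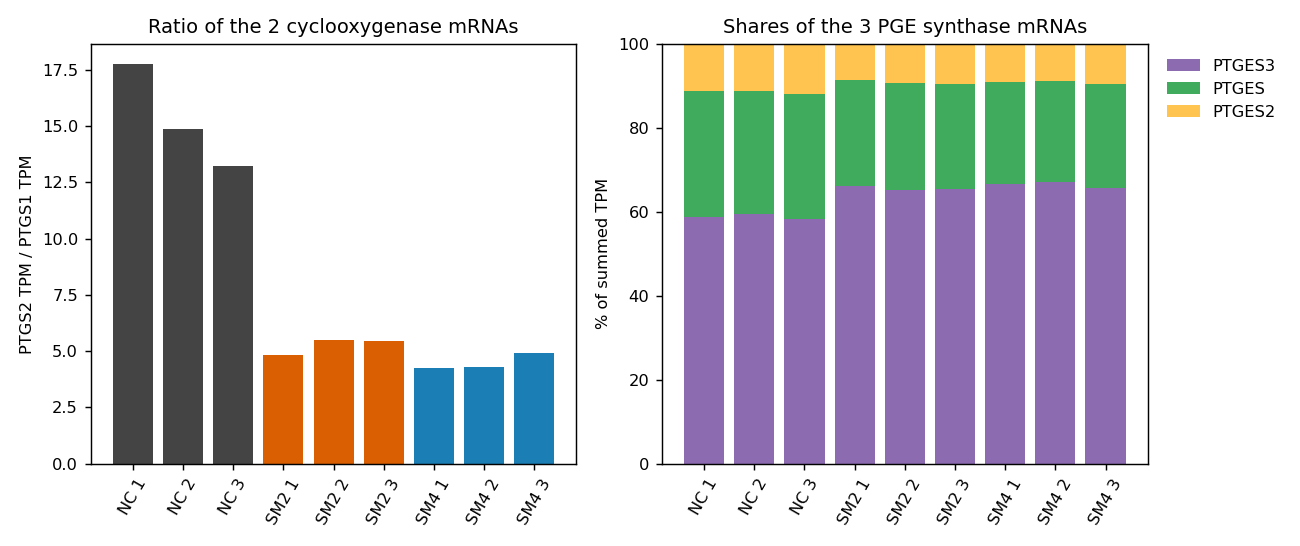
Left, ratio of PTGS2 to PTGS1 TPM (y axis, linear from 0) in each of the 9 libraries (x axis), coloured by label; right, percent of the summed TPM of the 3 prostaglandin E synthases held by each, in the same libraries. The ratio is 13.2 to 17.8 in NC and 4.26 to 5.51 in SM2 and SM4, and the PTGES3 share is below 60% in NC and above 65% in SM2 and SM4.

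Among the genes that end the signal, HPGD differed between the groups labelled SM2 and SM4. It encodes 15-hydroxyprostaglandin dehydrogenase, which oxidizes and inactivates prostaglandin E2. HPGD was at 7.76, 7.98 and 8.27 CPM in the libraries labelled NC, 10.2, 10.6 and 10.9 in SM2 and 6.74, 7.33 and 7.65 in SM4. The 3 groups did not overlap, with SM2 highest and SM4 lowest. It rose by 0.41 in SM2 against NC (SE 0.0884, edgeR adjusted p = 0.00194), was at -0.15 in SM4 against NC (95% interval -0.33 to 0.04, adjusted p = 0.285), and fell by 0.55 in SM4 against SM2 (SE 0.0884, adjusted p = 0.000172). The summed level of the 7 immune markers had the same order for SM2, at 59.2 to 63.2 CPM against 41.3 to 45.3 in NC and 41.4 to 44.8 in SM4. It came almost entirely from LYZ and CD14, with CD3E, a T cell marker, at 0 in 8 of the 9 libraries. Their part in the HPGD difference was not tested. A lowly expressed long noncoding RNA shares 314 exon bases with HPGD but reached no more than 0.0342 CPM.

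SLCO2A1, the transporter that takes prostaglandins up into cells for oxidation, was near the limit of detection. Its counts were 3, 4 and 10 in the libraries labelled NC, 38, 42 and 41 in SM2 and 20, 23 and 30 in SM4. None of the groups overlapped, and all 9 values were below 1 CPM. It rose by 2.92 in SM2 (SE 0.434, edgeR adjusted p = 4.31e-05) and by 1.95 in SM4 (SE 0.453, adjusted p = 0.00333) against NC. With so few NC counts the size is poorly set, with 95% intervals of 4.03-fold to 14.1-fold and 2.01-fold to 7.45-fold. The NC libraries were too low to pass the filter on low counts, so SLCO2A1 was tested only through SM2 and SM4, where it was higher. Its adjusted p-values against NC are therefore a description. SM4 against SM2 was at -0.96 and missed the threshold (95% interval -1.71 to -0.22, adjusted p = 0.0861). The summed endothelial markers were 6.12 to 7.01 CPM in NC, 8.81 to 9.96 in SM2 and 13.8 to 16.4 in SM4. PECAM1, at 5.30 to 15.001 CPM, carried most of that sum, VWF and CDH5 reached no more than 0.237 and 0.205 CPM, and KDR was at 0 in all libraries. Their part in the SLCO2A1 difference was not tested.

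Both prostaglandin E2 receptors that signal through cyclic AMP were lowly expressed. PTGER2, which encodes EP2, had 13, 12 and 18 counts in the libraries labelled NC, 15, 20 and 27 in SM2 and 10, 6 and 5 in SM4. In CPM the groups did not overlap, at 0.221 to 0.308, 0.328 to 0.509 and 0.0949 to 0.164. It fell by 1.79 in SM4 against SM2 (SE 0.452, edgeR adjusted p = 0.0107). That call was lost without SM2 replicate 3, SM4 replicate 2 or SM4 replicate 3, with values of -1.68 to -1.62 and adjusted p = 0.051 to 0.0553. Against NC neither SM2 (0.61, 95% interval -0.25 to 1.47, adjusted p = 0.337) nor SM4 (-1.18, -2.16 to -0.20, adjusted p = 0.0816) passed the test.

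PTGER4, which encodes EP4, showed no called difference. It was at 1.87, 1.25 and 0.906 CPM in the libraries labelled NC, 2.21, 1.37 and 1.47 in SM2 and 1.04, 0.934 and 1.35 in SM4. NC overlapped both other groups and spanned 53 to 82 counts, whereas SM4 lay below SM2 throughout. The log2 fold change was 0.34 in SM2 against NC (95% interval -0.20 to 0.88, edgeR adjusted p = 0.396), -0.27 in SM4 against NC (-0.82 to 0.28, adjusted p = 0.549) and -0.61 in SM4 against SM2 (-1.15 to -0.07, adjusted p = 0.142). A change of the size seen in PTGES3 was not detectable at this depth.

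**Figure D3:**
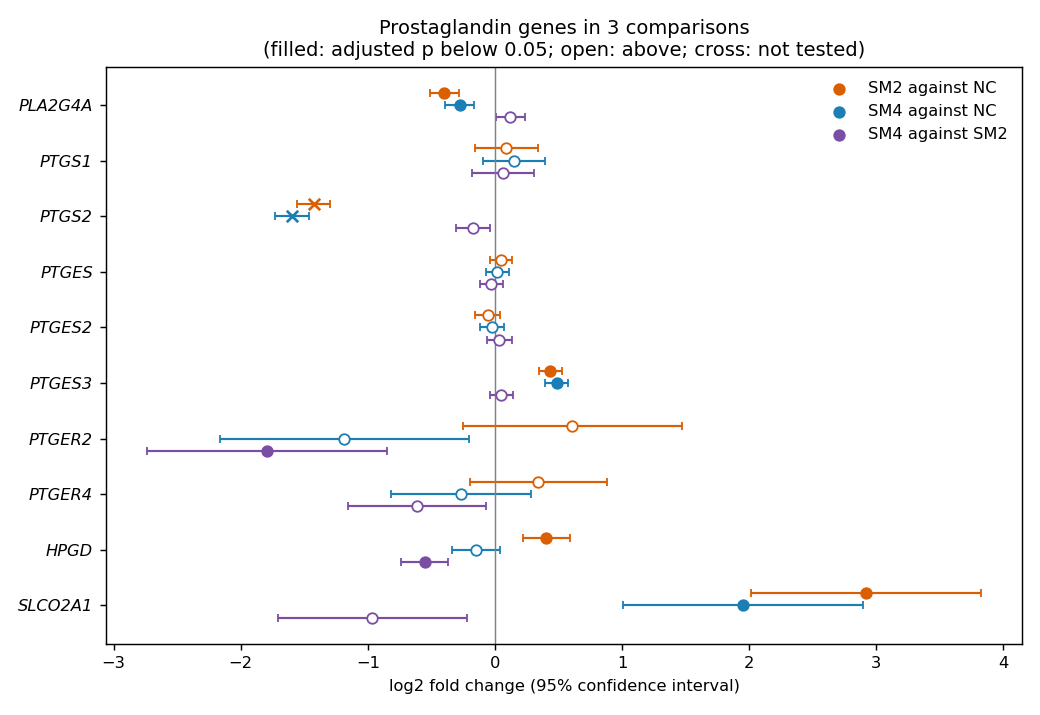
Log2 fold change (x axis) with its 95% confidence interval for the 10 genes (y axis) in 3 comparisons, by colour. Filled points have an edgeR adjusted p below 0.05, open points do not, and crosses mark PTGS2 against NC, which was not tested. PTGS2 lies left of -1 in SM2 and SM4 against NC, PTGES3 lies right of 0 in both, and the receptor and SLCO2A1 intervals are the widest.

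Leaving out PTGS2, 3 of the other 9 genes were higher and 1 lower in SM2 against NC, where 22.3% of all tested genes were called (12% higher and 10.3% lower). In SM4 against NC 2 were higher and 1 lower, with 21.2% of all genes called (11% and 10.2%). In SM4 against SM2 edgeR called none higher and 2 lower, HPGD and PTGER2, with 12.8% called (6.04% and 6.76%). Groups did not overlap for 6, 5 and 5 of the 9 genes, against 35.2%, 38.4% and 28.3% of all genes. The median log2 fold change of the 9 was 0.34, -0.02 and -0.03, where that of all tested genes was -0.0037, -0.0011 and -0.00022. The genes higher in SM2 and in SM4 against NC include SLCO2A1, which passed the filter only through those groups. With 9 genes these shares are a description of the members.

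Ranked by mean TPM, PTGES3, PTGES and PTGES2 were the 3 most abundant members under every label. PTGS2 came next in NC, at 78.3 ± 7.51 TPM, above PLA2G4A at 56.3 ± 2.17. SM2 had the opposite order, with PLA2G4A at 42.5 ± 1.42 and PTGS2 at 29.0 ± 2.40 TPM. SM4 did too, at 47.4 ± 0.901 for PLA2G4A and 26.3 ± 0.711 for PTGS2. HPGD and PTGS1 followed at 5.18 to 8.19 TPM, and their ranges overlapped in NC and SM4. PTGER4, PTGER2 and SLCO2A1 were lowest, with overlapping ranges for PTGER2 and SLCO2A1 in SM2 and SM4. Averaged over the 9 libraries PTGES3 was above 99.0% of tested genes, PTGS2 above 75.8% and PTGER2 above 8.41%. With the longest transcript in place of the merged exons the positions of PTGS2 and PLA2G4A were the same under each label.

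The counts of called genes in the lists that follow are given beside the share of all tested genes called, 22.3% for SM2 and 21.2% for SM4, each against NC, and 12.8% between SM4 and SM2. Genes that supply arachidonic acid to the pathway moved in both directions. Of 20 listed, 19 were tested, and 3 were higher and 3 lower in SM2, 2 higher and 3 lower in SM4 against NC, and 1 higher and 4 lower in SM4 against SM2. These are 31.6%, 26.3% and 26.3% of the 19. FADS2, a desaturase on the route to arachidonic acid, rose from 10.7 ± 0.872 CPM in the libraries labelled NC to 14.6 ± 0.391 in SM2 and 14.0 ± 0.604 in SM4, by 0.45 and 0.38 (edgeR adjusted p = 0.000318 and 0.00133). MGLL, the monoacylglycerol lipase that also releases arachidonic acid, fell from 114 ± 5.61 CPM in NC to 87.5 ± 0.859 in SM4, by 0.38 (adjusted p = 4.05e-06). Its fall of 0.14 in SM2 (adjusted p = 0.0289) was lost under 6 of 16 alternatives, at -0.16 to -0.11, among them those without NC replicate 1, NC replicate 2, SM2 replicate 3 or SM4 replicate 1. PLAAT3, a phospholipase and acyltransferase, rose by 0.34 in SM4 against NC (adjusted p = 3.38e-06) and by 0.25 against SM2 (adjusted p = 0.000213).

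Of 12 listed genes for other prostanoid synthases and reductases, 8 were tested, with 0 higher and 1 lower in SM2, 1 and 1 in SM4 against NC, and 2 and 0 in SM4 against SM2. With 8 genes these are 12.5%, 25% and 25%, where 22.3%, 21.2% and 12.8% of all genes were called. AKR1B1, an aldose reductase with prostaglandin F synthase activity, fell from 93.0 ± 2.35 CPM in NC to 78.2 ± 7.25 in SM2, by 0.25 (edgeR adjusted p = 0.0036). Its rise of 0.18 in SM4 against SM2 (adjusted p = 0.0486) was lost under 8 of 16 alternatives, at 0.14 to 0.18, among them leaving out any library but SM2 replicate 3 and SM4 replicate 1. AKR1C3, a prostaglandin F synthase, was at -0.36 in SM4 against NC (adjusted p = 0.0495), and PTGR3, a prostaglandin reductase, at 0.22 (adjusted p = 0.0419). The AKR1C3 call was lost under 12 of 16 alternatives, at -0.39 to -0.31, among them DESeq2 and those without NC replicate 2 or 3, SM2 replicate 2 or any SM4 library. The PTGR3 call was lost without any 1 of the NC libraries, SM4 replicate 1 or SM4 replicate 2, at 0.16 to 0.24. PTGR3 was at 0.26 in SM4 against SM2 (adjusted p = 0.0235), lost without SM2 replicate 1 or 3 or SM4 replicate 1 or 2, at 0.20 to 0.26.

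Few of the other prostanoid receptors were expressed. Of 8 genes for receptors and transport, 2 were tested, and the 6 that were not included PTGER1 and PTGER3, the genes of EP1 and EP3, at no more than 0.146 and 0.0377 CPM. ABCC4, an efflux pump that exports prostaglandin E2, was at 28.7, 27.2 and 27.9 CPM in the libraries labelled NC, 21.5, 21.1 and 18.2 in SM2 and 15.5, 16.0 and 14.5 in SM4. The groups did not overlap and stood in the order NC, SM2, SM4. By these labels, which METTL3 goes against, it fell by 0.46 in SM2 (edgeR adjusted p = 6.24e-05) and by 0.86 in SM4 (adjusted p = 1.78e-08) against NC, and by 0.40 in SM4 against SM2 (adjusted p = 0.000652).

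In the lipoxygenase and epoxygenase branch, which draws on the same arachidonic acid, 13 of 19 genes were tested. In SM2 1 was higher and 1 lower, and in SM4 3 were higher and 2 lower against NC, or 15.4% and 38.5% where 22.3% and 21.2% of all genes were called. In SM4 against SM2 edgeR and DESeq2 called none of the 13, with 1 at an unadjusted edgeR p below 0.05, and edgeR called 1 without SM4 replicate 2. CYP2J2, an arachidonic acid epoxygenase, was at 6.34, 4.69 and 5.28 CPM in the libraries labelled NC, 3.02, 2.45 and 2.70 in SM2 and 2.78, 3.20 and 2.56 in SM4. NC lay above both other groups, which overlapped. It fell by 0.99 in SM2 (edgeR adjusted p = 3.86e-05) and 0.93 in SM4 (adjusted p = 6.28e-05). ALOX5, the 5-lipoxygenase that starts leukotriene synthesis, rose by 0.31 in SM2 (adjusted p = 0.00142) and by 0.25 in SM4 (adjusted p = 0.00894), the latter lost without NC replicate 2 or SM4 replicate 3, at 0.21 and 0.19. The other calls in SM4 against NC were ALOXE3 (-0.85) and EPHX2 (2.72), which had means below 1 CPM and are named here after their values were seen. EPHX1, an epoxide hydrolase, was at 0.15 in SM4 against NC (adjusted p = 0.0308), lost without NC replicate 1 or 2 or any 1 of the SM4 libraries, at 0.12 to 0.16.

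Downstream of EP2 and EP4, all 22 genes of cyclic AMP signalling were tested. In SM2 7 were higher and 2 lower, in SM4 9 and 2 against NC, and 2 and 2 in SM4 against SM2. That is 40.9%, 50% and 18.2% of the 22, beside 22.3%, 21.2% and 12.8% of all genes. PRKACA, the catalytic alpha subunit of protein kinase A, was at 70.9, 68.3 and 68.4 CPM in the libraries labelled NC, 110, 107 and 95.6 in SM2 and 105, 117 and 115 in SM4. NC lay below both other groups, which overlapped, and PRKACA rose by 0.59 (edgeR adjusted p = 1.26e-07) and 0.70 (adjusted p = 7.86e-09). PDE4D, a phosphodiesterase that degrades cyclic AMP, fell from 16.8 ± 1.12 CPM in NC to 10.9 ± 0.643 in SM4, by 0.62 (adjusted p = 2.27e-05). Its fall of 0.31 in SM2 (adjusted p = 0.0137) was lost without NC replicate 1, NC replicate 2, SM2 replicate 2 or SM2 replicate 3, at -0.29 to -0.24, and its fall of 0.31 in SM4 against SM2 (adjusted p = 0.024) without SM2 replicate 1 or SM4 replicate 1 or 2, at -0.31 to -0.22.

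RAPGEF3, the cyclic AMP sensor EPAC1, differed from NC in different directions under the labels SM2 and SM4. It was at 11.8, 14.4 and 13.4 CPM in the libraries labelled NC, 10.2, 11.3 and 10.8 in SM2 and 20.96, 19.2 and 19.3 in SM4. The groups did not overlap, with SM2 lowest and SM4 highest. SM4 was higher than NC by 0.58 (edgeR adjusted p = 1.64e-05) and higher than SM2 by 0.88 (adjusted p = 2.32e-07). The fall of 0.30 in SM2 against NC (adjusted p = 0.0132) was lost without NC replicate 2, at -0.23. If the labels NC and SM4 were exchanged, the libraries labelled NC and SM2 would both be lower than the control.

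Of 22 listed regulators of PTGS2 transcription and mRNA decay, 21 were tested. In SM2 5 were higher and 3 lower, in SM4 3 and 4 against NC, and 0 and 2 in SM4 against SM2. That is 38.1%, 33.3% and 9.52% of the 21, beside 22.3%, 21.2% and 12.8% of all genes. JUN, a subunit of AP-1, was at 45.9, 47.0 and 40.9 CPM in the libraries labelled NC, 36.2, 39.6 and 35.8 in SM2 and 22.6, 25.9 and 25.9 in SM4. The groups did not overlap and stood in the order NC, SM2, SM4. By the same labels JUN fell by 0.85 in SM4 against NC (edgeR adjusted p = 1.17e-08) and by 0.59 against SM2 (adjusted p = 4.27e-06), and its fall of 0.26 in SM2 (adjusted p = 0.00706) was lost without NC replicate 2, at -0.22.

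CEBPD, which encodes C/EBP delta, was highest in the libraries labelled SM2. It measured 53.8, 56.8 and 58.5 CPM in NC, 61.8, 65.9 and 72.2 in SM2 and 41.9, 46.7 and 46.4 in SM4. No group overlapped another. It rose by 0.24 in SM2 (edgeR adjusted p = 0.00565) and fell by 0.33 in SM4 (adjusted p = 0.000452) against NC, and fell by 0.57 in SM4 against SM2 (adjusted p = 1.32e-06). FOS, the partner of JUN in AP-1, rose by 0.52 in SM4 against NC (adjusted p = 0.00182). In SM2 it was at 0.32 (adjusted p = 0.0481), a call lost under 8 of 16 alternatives, at 0.24 to 0.33, among them leaving out any library but NC replicate 1, SM2 replicate 2 and SM4 replicate 3.

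**Figure D4:**
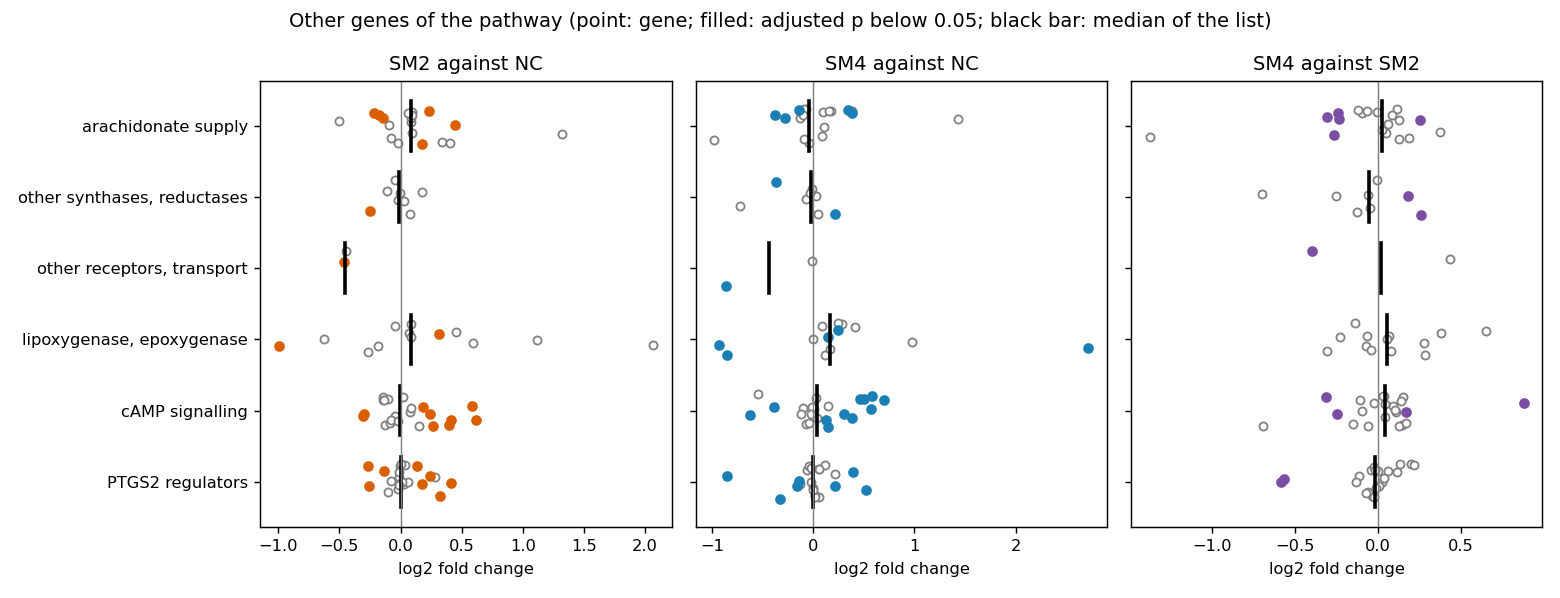
Log2 fold change (x axis) of each tested gene in 6 lists of the wider pathway (y axis) in the 3 comparisons (panels). Filled points have an edgeR adjusted p below 0.05 and black bars are list medians. Medians lie near 0 in all lists except the 2 tested genes of receptors and transport against NC, and called genes fall on both sides of 0 in 4 of the 6 lists in the left panel, 5 in the middle panel and 2 in the right panel.

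The genes whose profile over the 9 libraries was most like that of PTGS2 were picked by the smallest root mean square difference of log2 CPM, centred on the mean of the 9 libraries, among 14411 genes. They are KYNU (difference 0.116), CYP1B1 (0.225), TNIP3 (0.244), F5 (0.257) and CEACAM5 (0.259). As they were chosen on these libraries, their values are a description. KYNU, which encodes kynureninase of tryptophan breakdown, stood at 66.8 ± 2.23, 27.8 ± 0.642 and 23.2 ± 1.06 CPM under NC, SM2 and SM4. CYP1B1, a cytochrome P450 of xenobiotic and steroid metabolism, stood at 214 ± 5.93, 116 ± 6.49 and 88.4 ± 2.04 CPM. CEACAM5, the carcinoembryonic antigen, stood at 85.5 ± 3.37, 47.5 ± 0.627 and 30.1 ± 0.9753 CPM. These 3 genes, PTGS2 and TNIP3 share the order NC, SM2, SM4 from highest to lowest mean. TNIP3, an inhibitor of NF-kB signalling, and F5, coagulation factor V, were the least abundant, at 5.12 ± 0.158 and 4.30 ± 0.421 CPM in NC. Against NC, TNIP3 had log2 fold changes of -0.97 in SM2 and -1.59 in SM4, and F5 of -1.65 and -1.59. Without SM2 replicate 1 the TNIP3 value was -1.14.

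**Figure D5:**
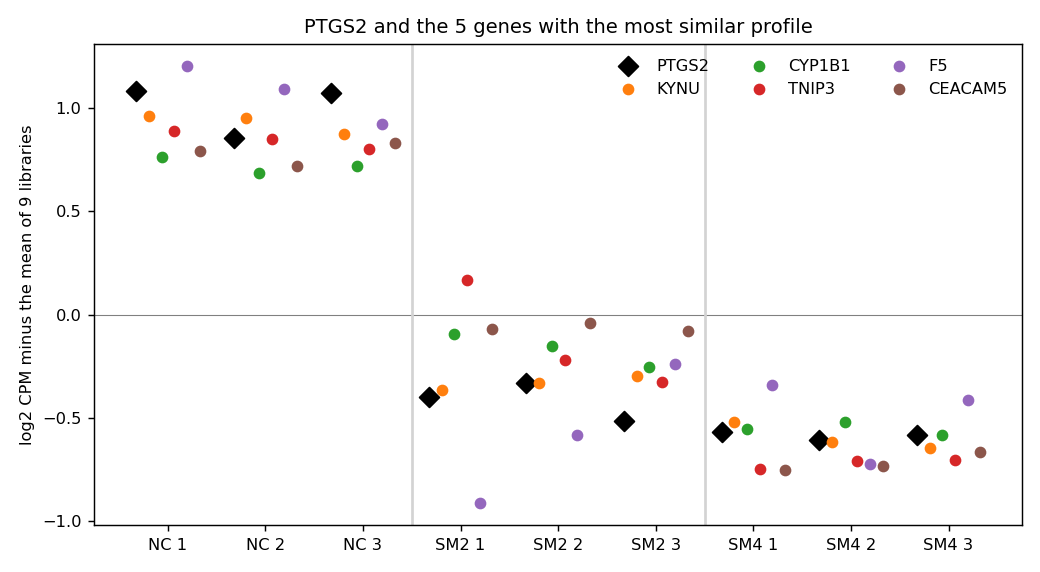
Log2 CPM minus the mean of the 9 libraries (y axis) for PTGS2 (black diamonds) and the 5 genes with the closest profile (coloured points) in each library (x axis). All 6 genes lie above 0 in the 3 NC libraries and below 0 in the 3 SM4 libraries, and in SM2 only TNIP3 in replicate 1 lies above 0.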

How the data were processed

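The authors deposited raw counts per gene, with no normalization, for the 9 libraries, and no column was left unused (0 columns). The submitters' processing notes name fastp, HISAT2, Subread and featureCounts and the build GRCh38 (hg38), and versions, annotation and strand setting are not given in the sources used here. Library kit and read layout differ between the labels and the published methods and remain uncertain. Of 60649 identifiers, 60463 matched GENCODE 44, and unmatched ones took up to 0.0444% of a library. In R 4.3.3, edgeR 4.0.16 was used with TMM (factors 0.989 to 1.01), filterByExpr (19674 genes kept, 40975 removed) and the quasi-likelihood F test with the group alone over all 9 libraries, Benjamini-Hochberg adjustment over the 19674 genes and a threshold of 0.05. CPM values are TMM-normalized and TPM was computed from counts and merged exon length, each as mean ± SD (n = 3). These are counts without molecular identifiers, so intervals cover the spread between libraries and not amplification. The scripts were tested on simulated data.

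The members and lists were chosen with earlier results of these data known. Named genes were the 10 members, METTL3, the 3 largest called changes of each other list with a mean of at least 1 CPM, the 5 genes closest to PTGS2, overlapping genes and copies, and neighbours of PTGS2. Alternatives were DESeq2 1.42.0, other normalizations and filters, only the libraries compared, a replicate block and leaving out each library. Replicate numbers gave no sign of pairing the libraries. A planned comparison of the cyclooxygenase proteins was not run. The level of 1 marker is not reported here.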

Additional observations from a re-analysis of the deposited data

Results flagged for a closer look

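For 2 members the effects of the labels SM2 and SM4 against NC differed by a direct test, SM4 against SM2 in edgeR. HPGD differed by -0.553 on the log2 scale (edgeR adjusted p = 0.000172), with all 3 SM4 libraries below all 3 SM2 libraries. PTGER2 differed by -1.79 (edgeR adjusted p = 0.0107) on 5 to 27 counts per library in these groups, again without overlap. The PTGER2 call was lost without SM2 replicate 3, SM4 replicate 2 or SM4 replicate 3 (edgeR adjusted p = 0.051 to 0.0553). The cause of either difference was not tested. METTL3 went against the labels, and with NC and SM4 exchanged this contrast would compare a control with a knockdown, not 2 knockdowns.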

How the results depend on the processing

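Each result was recomputed under 16 alternatives. Without PTGS2, which was not tested there, 4 members were called in SM2 and 3 in SM4 against NC whichever library was left out, and 3 and 2 with a mean of at least 1 CPM, which removed SLCO2A1. In SM4 against SM2, 2 were called, 1 with the DESeq2 Wald test (which gave no adjusted p for PTGER2), 1 with a mean of at least 1 CPM (which removed PTGER2), and 1 to 2 on leaving out a library. Over all genes, calls on leaving out a library ranged from 3209 to 4623 in SM2 against NC, 2933 to 5227 in SM4 against NC and 1574 to 2748 in SM4 against SM2, the last lowest without SM4 replicate 1. Some differences that were not called changed sign when 1 library was left out. PTGER4 in SM4 against NC ranged from -0.496 to 0.0321 (NC replicate 1) and PTGES from -0.00038 (SM4 replicate 2) to 0.0317. In SM4 against SM2, PTGS1 ranged from -0.0142 (SM2 replicate 3) to 0.132, CYP2J2 from -0.028 (SM4 replicate 2) to 0.144 and F5, not tested, from -0.0927 (SM2 replicate 1; -0.0203 without SM4 replicate 1) to 0.255. The causes were not tested. SLCO2A1 ranged from 2.70 to 3.49 in SM2 against NC, and depth limits it and the receptors most.

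Deviations from group means over all tested genes gave no sign that the replicate numbers pair the libraries. Those of the 9 same-numbered pairs correlated at -0.053 to 0.0453 and those of the 18 others at -0.0651 to 0.0923. Such correlations cannot exclude a shared culture or day. A fit with the replicate number as a block called 4 members other than PTGS2 for SM2 and 3 for SM4, each against NC, and 2 between SM4 and SM2, as without it. Over all genes it called 4693, 4484 and 2815 in that order, where the fit without it called 4389, 4173 and 2518. Of the single genes named, AKR1C3 in SM4 against NC was no longer called with the block (-0.36, edgeR adjusted p = 0.0566).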
